A study of Mus musculus with 11 samples.

Results

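Cell-cycle genes of S phase and of G2/M were followed in macrophages (macs) sorted from 5 mouse tissues. The genes were taken from a fixed list by symbol, and all 39 listed symbols were present among the 27998 genes of each library. They comprised 14 S-phase genes, 23 G2/M genes, and Stmn1 and Hmgb2, which are abundant in both phases. Droplet-based single-cell RNA sequencing (10x Genomics), which counts the 3′ ends of mRNA molecules with unique molecular identifiers (UMIs), had been carried out to ask what loss of the transcription factor ZEB2 does to macs. Microglia (brain), colonic macs (CMs), Kupffer cells (KCs, liver), alveolar macs (AMs, lung) and splenic macs (SMs) each gave 1 WT and 1 Zeb2KO library. The WT mice carried loxP-flanked Zeb2 alleles (Zeb2fl/fl) without CRE, and the Zeb2KO mice carried Zeb2fl/fl together with a CRE transgene. An 11th library held KCs of mice without CRE whose Nr1h3 gene was flanked by loxP sites (Nr1h3fl/fl). All mice were C57Bl/6, of both sexes, with littermates as controls, and were stated to be 6 to 8 weeks old unless given otherwise. The labels name Fcgr1-cre for every Zeb2KO library, but by the study's methods the liver was targeted with Clec4f-cre and the lung with Itgax-cre, and this could not be settled. The CRE did not give pure knockout populations. In KCs and AMs of CRE+ mice the study found cells that had kept a copy of Zeb2 beside cells that had lost both, and it presumed the same for SMs and CMs, so a Zeb2KO library outside the brain is a mixture. Fcgr1-cre also acts in B cells, T cells and dendritic cells, and Clec4f-cre in a few B cells. How many mice went into a library was not given in the sources used here.

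Because each tissue and genotype had 1 library, a difference within a tissue had no replicate check, and every interval given covers counting error only (95%). The libraries held 3097 to 7703 barcodes and 11133411 to 47400786 UMIs. After a filter on cells and removal of clusters of other cell types (none in brain, up to 21.6% of cells in the WT spleen), 2830 to 6974 cells were kept. The removal did not catch every cluster led by genes of other types. In the spleen 3 stayed in, led by Fcer2a and Jchain, by Xcr1 and Il12b, and by Cd209a and Klrd1. The last of these also had the members Top2a and Prc1 among its top genes. In addition, 1 colon cluster (Ear2, Ccr2 and Cd209a) and 1 liver cluster (Nkg7 and Gzma) stayed in. Values without these clusters are given where they bear on a result. A spleen cluster led by S100a8, S100a9, Camp and Ngp also stayed in, with 19.7% of filtered Zeb2KO and 0.121% of WT cells. Its macrophage markers had a mean log2 ratio of 0.17 over the other clusters. So did a liver cluster led by Cyp26b1, with Epas1 and Adgrf5 (4% of Zeb2fl/fl WT and 1.64% of Zeb2KO cells), stay in. Both are part of all values. The 6 markers of each tissue mac (microglia, Kupffer, alveolar, colonic and splenic red pulp) all reached 5 CPM (UMI counts divided by the total of the kept cells and scaled to the same depth) in the libraries of their own tissue. Zeb2 itself was listed at 312 to 726 CPM in the WT libraries and at 477 to 1747 CPM in the Zeb2KO libraries. Counting at the 3′ end of the transcript does not read a deleted internal exon, so these levels do not check the deletion. Libraries shared at most 1.45% of the barcodes of the smaller one.

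A dividing cell copies its DNA in S phase and separates the copies in mitosis. Genes for DNA synthesis are switched on by E2F factors before and during S phase, whereas genes for the mitotic spindle, the kinetochore and the mitotic cyclins peak in G2 and mitosis, when the DREAM repressor is off and the activators B-MYB and FOXM1 are on. Many tissue-resident macs are long-lived cells that maintain themselves by a low rate of local division. Circulating monocytes can replace them when a niche is emptied. CMs differ, since the study describes a steady replacement of these cells by bone marrow monocytes in adult mice.

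The promoters of 5 members are shown, with letters that are counted over the S-phase and the G2/M promoters below. Each sequence holds the 150 bases before the annotated start (RefSeq, GRCm38.p6), 5′ to 3′ on the strand of the gene. For Top2a (chr11:99024190-99024339, minus strand), Ube2c (chr2:164769779-164769928, plus strand) and Cdk1 (chr10:69352913-69353062, minus strand), capitals mark CCAAT and TTTGAA on either strand, the letters of a CCAAT box and of a cell-cycle homology region. For Mcm6 (chr1:128359706-128359855, minus strand) and Mcm5 (chr8:75109359-75109508, plus strand), they mark the E2F-type words TTTCGCGC, TTTGGCGC and TTCCCGCC, which can overlap each other. The other kind of word is left unmarked in each stretch, and CCAAT also lies in Mcm6 and Mcm5, and TTTCGCGC in Cdk1.
Top2a: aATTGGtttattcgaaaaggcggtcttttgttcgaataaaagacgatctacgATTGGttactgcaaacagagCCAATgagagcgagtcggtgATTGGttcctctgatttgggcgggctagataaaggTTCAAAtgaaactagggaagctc
Ube2c: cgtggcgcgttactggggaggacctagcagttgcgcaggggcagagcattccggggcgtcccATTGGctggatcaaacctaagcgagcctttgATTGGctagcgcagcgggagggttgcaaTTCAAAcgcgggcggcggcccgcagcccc
Cdk1: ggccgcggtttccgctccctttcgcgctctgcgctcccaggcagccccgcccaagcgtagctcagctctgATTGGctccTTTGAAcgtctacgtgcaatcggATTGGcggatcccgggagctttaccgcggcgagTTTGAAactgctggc
Mcm6: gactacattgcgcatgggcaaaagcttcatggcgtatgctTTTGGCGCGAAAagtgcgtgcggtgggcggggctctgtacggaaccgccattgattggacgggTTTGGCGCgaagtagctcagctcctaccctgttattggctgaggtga
Mcm5: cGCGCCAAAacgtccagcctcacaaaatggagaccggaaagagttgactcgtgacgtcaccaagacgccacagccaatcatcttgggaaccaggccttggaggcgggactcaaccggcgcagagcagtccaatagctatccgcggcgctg

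Promoter sequences (250 bases before to 50 after the start) were available for 33 of the 39 members, and Mcm4, Tpx2, Stmn1, Gins2, Aurkb and Ccna2 had no entry. CCAAT occurred in 18 of 20 G2/M promoters and in 8 of 12 S-phase promoters, against 37.4% of all 32851 promoters. TTTGAA divided the sets more, with 15 of 20 G2/M and 1 of 12 S-phase promoters (Mcm2), against 17.9% of all promoters. Any of the 3 E2F-type words was found in 6 of 12 S-phase promoters, in 1 of 20 G2/M promoters (Cdk1) and in 2.96% of all promoters. A match is a description of letters and was not tested for binding.

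The summed level of the 23 G2/M genes separated the libraries far more than that of the 14 S-phase genes. The G2/M sum was 16.1 CPM (13.97 to 18.5) in WT and 120.5 CPM (115.4 to 125.9) in Zeb2KO microglia. In KCs it was 155 CPM in the Zeb2fl/fl WT, 234 CPM in the Nr1h3fl/fl WT and 494 CPM in the Zeb2KO library. In WT and Zeb2KO it was 223 and 274 CPM in CMs, 332 and 307 CPM in AMs, and 144 and 143 CPM in SMs. WT microglia were lowest and Zeb2KO KCs highest, and the intervals of the SM libraries overlapped. The S-phase sum was 136 and 141 CPM in microglia, 233 and 238 CPM in CMs, 312, 328 and 439 CPM in KCs, 358 and 236 CPM in AMs, and 243 and 219 CPM in SMs. The S-phase sum thus spanned a much narrower range, and in microglia and CMs the intervals of WT and Zeb2KO overlapped. Zeb2KO KCs held the highest level of 33 of the 39 members, WT AMs of 5 and WT SMs of 1 (Rrm1).

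**Figure D1:**
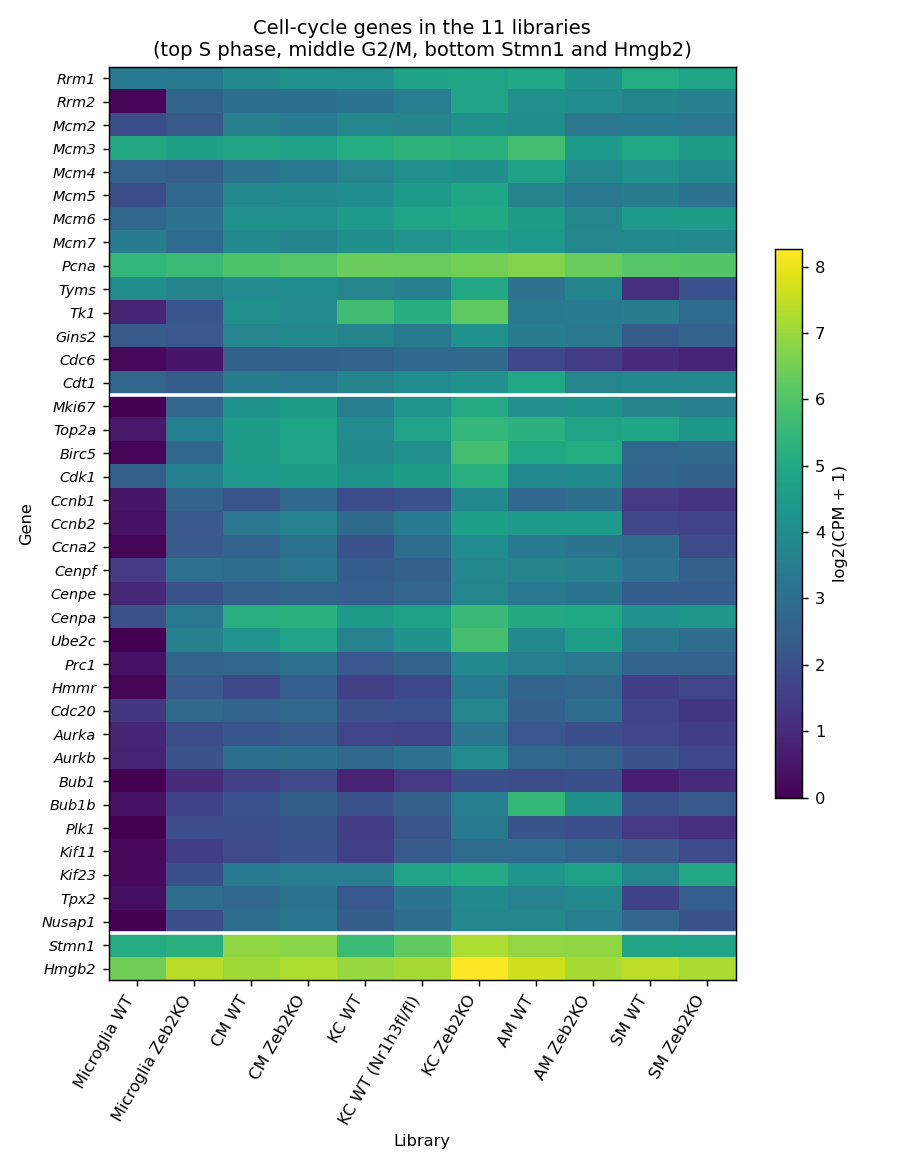
Level of each member as log2(CPM + 1), with genes in rows (S phase, G2/M, then Stmn1 and Hmgb2) and the 11 libraries in columns. The G2/M rows are near 0 in WT microglia, where Mki67 and Ube2c had 0 UMIs, and brightest in Zeb2KO KCs, while Pcna stays at 43.0 CPM or more in every library.

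KCs gave the broadest difference between genotypes. All 39 members were higher in the Zeb2KO than in the Zeb2fl/fl WT library, 37 of them with a counting interval that excluded equal levels (all but Mcm3 and Cdc6), where 21% of the 16774 genes with a UMI in either library were higher by that measure. On the stricter rule, a log2 ratio of CPM plus 1 of at least 1 among genes with at least 5 CPM in the higher library, 25 members were higher and 0 lower, against 4.06% of 9159 genes higher and 1.38% lower. They were 21 G2/M genes, Rrm2 and Tyms of the S-phase genes, and Stmn1 and Hmgb2. Of the 9 G2/M genes that already stood at 5 CPM or more in the WT library, 8 met the rule, and Cdk1 fell just short of it with a log2 ratio of 0.98. The log2 ratio of the G2/M sum was 1.67 (1.62 to 1.72) and that of the S-phase sum 0.49 (0.45 to 0.54), with a median over all genes considered of 0.02.

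Among the mitotic kinases and cyclins, Ccnb1, the B-type cyclin that activates CDK1 for mitotic entry, stood at 2.96 CPM in Zeb2fl/fl WT, 3.25 CPM in Nr1h3fl/fl WT and 13.6 CPM in Zeb2KO KCs. Its partner cyclin Ccnb2 stood at 6.21, 9.53 and 24.1 CPM, and Ccna2, the cyclin of S phase and G2, at 3.37, 6.996 and 15.2 CPM. The kinase Plk1, which acts on centrosomes and kinetochores, was at 1.85, 3.53 and 9.15 CPM. For each of these 4 genes the Zeb2KO library lay above both WT libraries. Ube2c, the ubiquitin-conjugating enzyme that works with the anaphase-promoting complex, had the highest ratio of all members, with 11.6, 18.4 and 55.7 CPM and a log2 ratio of 2.17 over the Zeb2fl/fl library. Its co-activator Cdc20 was at 3.17, 3.25 and 12.4 CPM. Birc5 (survivin, of the chromosomal passenger complex) was at 13.9, 16.8 and 52.8 CPM, and Hmmr, a spindle assembly factor, at 1.97, 2.48 and 9.38 CPM. The other G2/M members that met the rule had log2 ratios between 1.08 (Cenpa, the centromeric histone) and 1.68 (Tpx2, an activator of Aurora A at the spindle).

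The S-phase genes of KCs differed less, and unequally. Rrm2, the small subunit of ribonucleotide reductase, stood at 8.06, 10.5 and 27.1 CPM in Zeb2fl/fl WT, Nr1h3fl/fl WT and Zeb2KO KCs, a log2 ratio of 1.63. Tyms, thymidylate synthase, stood at 12.6, 11.5 and 29.1 CPM (1.15). The large subunit Rrm1 and the salvage enzyme Tk1 stayed under the rule with 0.58 and 0.49. Of the 6 subunits of the MCM helicase, which unwinds DNA at the fork, none met it, and Mcm5 came nearest with 15.2, 20.6 and 28.8 CPM (0.88). Pcna, the sliding clamp of the replication fork and the most abundant S-phase member in every library, was at 81.0, 79.2 and 88.7 CPM, a log2 ratio of 0.13 (0.04 to 0.22 without the added CPM). Stmn1, a microtubule destabiliser, was at 48.5, 74.3 and 152 CPM (1.63), and Hmgb2, a chromatin protein, at 127, 142 and 306 CPM (1.26).

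The Nr1h3fl/fl library gave the size of difference that 2 CRE-negative KC libraries can show. It also lay above the Zeb2fl/fl library, with log2 ratios of 0.59 (0.53 to 0.66) for the G2/M sum and 0.07 (0.02 to 0.12) for the S-phase sum. Here 17 of 23 G2/M genes had an interval above equal levels, against 26% of 16387 genes. By the stricter rule 1 member was higher, Kif23, a kinesin of the central spindle (10.5 CPM in Zeb2fl/fl, 26.4 CPM in Nr1h3fl/fl and 32.4 CPM in Zeb2KO KCs), against 0.649% of 9085 genes, and 0 were lower, against 1.11%. Set against the Nr1h3fl/fl library instead, Zeb2KO KCs had log2 ratios of 1.08 (1.02 to 1.13) for the G2/M sum and 0.42 (0.38 to 0.47) for the S-phase sum. In that comparison 18 members were higher and 0 lower (13 G2/M, 3 S-phase, Stmn1 and Hmgb2), against 5.11% of 9329 genes higher. Of these, 7 G2/M genes passed the minimum only through the Zeb2KO library, and of the 14 G2/M genes at 5 CPM or more in the Nr1h3fl/fl library, 6 met the rule. The comparisons share libraries and are not independent of each other. The log2 ratio of the G2/M sum in Zeb2KO KCs is thus 1.67 or 1.08 depending on the control, and 0.59 between the controls.

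**Figure D2:**
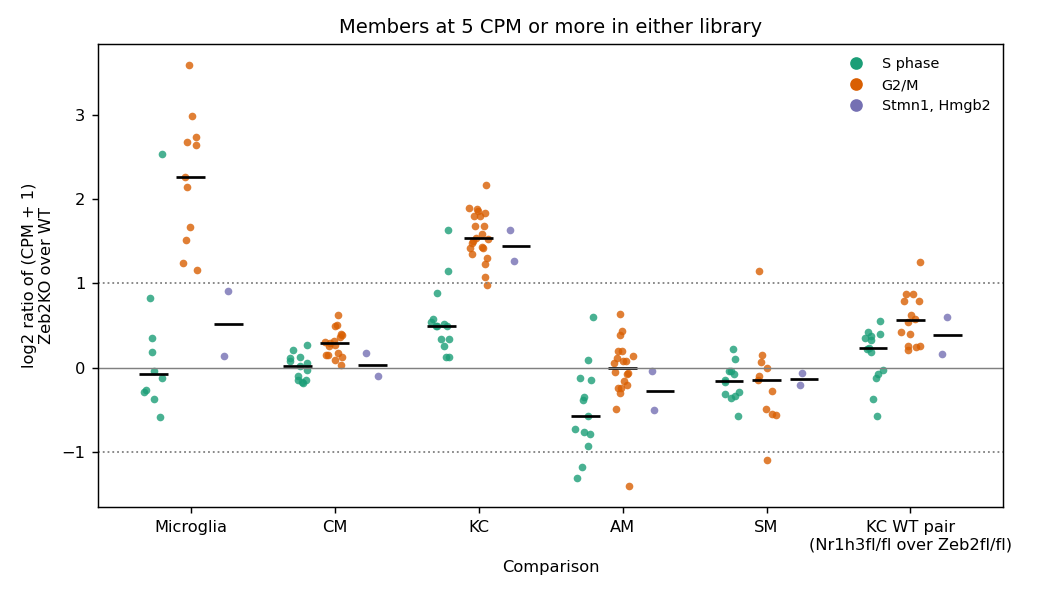
Log2 ratio of CPM plus 1 (Zeb2KO over WT, and Nr1h3fl/fl over Zeb2fl/fl for the KC WT pair at the right) for each member with at least 5 CPM in either library. Points are genes, black bars their medians, and dotted lines the limits of the fold rule. Points for G2/M genes lie mostly above 1 in microglia and KCs and around 0 in AMs and SMs.

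The G2/M genes were almost undetected in WT microglia. Ube2c had 0 UMIs in WT and 11.05 CPM in Zeb2KO microglia, which was at least 45.4-fold higher against the floor of 3 counts in the WT library (0.243 CPM). The lower limit of its exact interval was 36.6-fold. Mki67, the proliferation antigen Ki-67 that coats mitotic chromosomes, had 0 UMIs in WT and 5.67 CPM in Zeb2KO microglia, at least 23.3-fold higher against that floor (lower limit 18.6-fold). Top2a, the topoisomerase that untangles sister chromatids, was at 0.486 and 10.8 CPM, 22.1-fold (9.96 to 61.0). These genes were detected by at most 6 UMIs in 2830 WT microglia. Birc5 rested on 1 UMI in WT (0.0811 and 5.91 CPM, 72.9-fold, 12.8 to 2907), Tpx2 on 3 (0.243 and 6.74 CPM, 27.7-fold, 9.24 to 136.3), Prc1, a midzone bundling protein, on 4 (0.324 and 5.38 CPM), and Ccnb1 on 5 (0.405 and 5.20 CPM). Cdk1, the mitotic kinase, was the highest G2/M gene of WT microglia at 4.62 CPM, and stood at 11.5 CPM in Zeb2KO microglia (2.49-fold, 1.85 to 3.41).

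All 23 G2/M genes were higher in Zeb2KO than WT microglia, each with an interval above equal levels, where 16.7% of 15725 genes were higher by that measure. The log2 ratio of their sum was 2.90 (2.69 to 3.12). By the stricter rule 12 members were higher and 0 lower, against 5.02% of 9326 genes higher and 4.86% lower: the 8 genes just given, Cenpf, Cenpa and Cdc20, and Rrm2. None of the 11 G2/M genes reached 5 CPM in WT, so each passed the minimum only through the library in which it was high, and the count is a description. The other 12 G2/M genes stayed under 5 CPM in both libraries, with up to 4.19 CPM (Ccna2) in Zeb2KO.

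S-phase genes of microglia differed in both directions. Their sum differed by a log2 ratio of 0.05 (-0.04 to 0.14). Pcna was at 43.0 CPM in WT and 48.9 CPM in Zeb2KO, Mcm3 at 30.4 and 25.1 CPM, and Tyms at 15.6 and 11.9 CPM. Of the 14 genes, 4 had an interval above equal levels (Rrm2, Mcm5, Pcna and Tk1) and 3 below (Mcm3, Mcm7 and Tyms), against the 16.7% of all genes above and 25.2% below. Mcm5 was at 2.92 and 5.97 CPM. Rrm2 was the 1 S-phase gene to meet the rule, with 1 UMI in WT (0.0811 CPM) and 5.26 CPM in Zeb2KO microglia (64.9-fold, 11.3 to 2590). With TMM factors Rrm2, and Ccnb1 of the G2/M genes, fell below the 5 CPM minimum, and 10 members met the rule. Tk1 was at 0.811 and 3.66 CPM, under the minimum of the rule. Hmgb2 was at 86.7 and 163 CPM, a log2 ratio of 0.91, and Stmn1 at 33.2 and 36.6 CPM (0.13).

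CMs showed the same order of the lists at a smaller size. The log2 ratio of the G2/M sum was 0.30 (0.26 to 0.34), or 0.25 without the kept colon cluster led by Ear2 and Ccr2, and that of the S-phase sum 0.03 (-0.01 to 0.07). All 23 G2/M genes were higher in Zeb2KO CMs, 15 of them with an interval above equal levels, against 20.4% of 17921 genes. Between the CRE-negative KC libraries, 22 of 23 G2/M genes were higher in Nr1h3fl/fl, 17 of them with an interval above equal levels. The log2 ratio of the G2/M sum was 0.59 there, larger than that of CMs. No member met the rule of a log2 ratio of 1, which 1.46% of 8912 genes met upwards and 0.651% downwards. Mki67 was at 18.4 CPM in WT and 22.9 CPM in Zeb2KO CMs, Top2a at 22.1 and 26.8 CPM, and Ube2c at 18.9 and 27.0 CPM. Rrm2 was at 7.35 and 7.19 CPM, Pcna at 61.6 and 66.7 CPM, and Mcm5 at 13.6 and 14.4 CPM. Stmn1 was at 119 and 110 CPM and Hmgb2 at 133 and 151 CPM.

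Among the 5 tissues the S-phase sum lay furthest below WT in Zeb2KO AMs. The log2 ratio of the S-phase sum was -0.60 (-0.64 to -0.56), where the median over all genes considered was -0.29. With TMM factors, which rescale the libraries to a common bulk of genes, the S-phase sum was at -0.38. By the rule 3 members were lower and 0 higher, against 7.19% of 9032 genes lower and 5.03% higher. Mcm3, a subunit of the MCM helicase, was at 53.0 CPM in WT and 20.8 CPM in Zeb2KO AMs (-1.31). Cdt1, which loads that helicase on DNA, was at 29.8 and 12.6 CPM (-1.18), and at -0.98 with TMM factors it no longer met the rule. Bub1b, which encodes the checkpoint kinase BUBR1, was at 44.7 and 16.2 CPM (-1.41). All 6 MCM genes were lower in Zeb2KO AMs, each with an interval below equal levels, as 40.4% of 16586 genes were, among them Mcm5 at 11.99 and 8.91 CPM.

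The G2/M genes of AMs were split. Top2a was at 37.4 and 26.3 CPM in WT and Zeb2KO, whereas Ube2c was at 14.5 and 22.99 CPM, Birc5 at 29.6 and 32.6 CPM and Mki67 at 17.0 and 17.97 CPM. Of the 23 genes, 5 had an interval above and 5 below equal levels, against 16% and 40.4% of all genes. The log2 ratio of the sum was -0.11 (-0.15 to -0.07) and turned to 0.11 with TMM factors, so it carries no direction. Left out with Kif23, Bub1b brought it to -0.01 (-0.06 to 0.03). Rrm2 was at 16.6 and 15.1 CPM, Pcna at 103 and 80.3 CPM, Stmn1 at 121 and 117 CPM and Hmgb2 at 203 and 143 CPM.

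In SMs the log2 ratio was -0.02 (-0.13 to 0.10) for the G2/M sum and -0.15 (-0.24 to -0.06) for the S-phase sum. Without Bub1b and Kif23 the G2/M ratio was -0.23 (-0.35 to -0.11). By the rule, Kif23 was higher (12.7 CPM in WT, 29.4 CPM in Zeb2KO, log2 ratio 1.15), against 3.15% of 9435 genes, and Ccna2 lower (6.97 and 2.74 CPM, -1.09), against 1.34%. Mki67 was at 11.9 and 10.6 CPM, Top2a at 28.1 and 19.7 CPM, Rrm2 at 12.4 and 11.05 CPM, Pcna at 66.7 and 64.8 CPM and Mcm5 at 10.1 and 7.80 CPM. Stmn1 was at 27.3 and 25.9 CPM and Hmgb2 at 171 and 148 CPM. The spleen libraries were the shallowest, with 8322122 UMIs (WT) and 9866788 UMIs (Zeb2KO) in kept cells. With the removed clusters of other cell types put back, the G2/M ratio was -0.63 (-0.72 to -0.54), and 36 of 135 erythroid cells left out of the WT spleen held 3 or more members. Without the 3 kept spleen clusters led by genes of other types, which held 312 of 3249 WT and 229 of 3032 Zeb2KO cells, the G2/M sum was 78.0 CPM in WT and 88.3 CPM in Zeb2KO SMs, with a log2 ratio of 0.18 (0.02 to 0.34), and the S-phase ratio was -0.04 (-0.14 to 0.06). These values still include the kept cluster led by S100a8 (19.7% of filtered Zeb2KO and 0.121% of WT cells), whose part was not tested. Of the 3 clusters left out, the one led by Cd209a and Klrd1 also had the members Top2a and Prc1 among its top genes. Leaving it out thus also removes cells by the genes measured. The values without the 3 clusters therefore do not separate other cell types from dividing cells. The SM ratios thus carry no direction.

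A shift common to the 5 tissues was then tested in a fit that treated the 5 tissue pairs as replicates and blocked on tissue (edgeR quasi-likelihood test, Benjamini-Hochberg adjustment over 12158 genes). It called 0 of 39 members at an adjusted p under 0.05, as it called 0.0% of all genes, with 5 members at an unadjusted p under 0.05, where 11.9% of all genes were. The 5 were Kif23, Tpx2, Ccnb1, Cdk1 and Cenpa, all G2/M genes and all higher in Zeb2KO. Kif23 had the smallest adjusted p of a member (0.351 in edgeR, log2 fold change 1.16 ± 0.39 (SE), higher in 5 of 5 pairs). All 23 G2/M genes had a fitted log2 fold change above 0, and 9 of 14 S-phase genes, against 49.2% of all genes. DESeq2 with the same design called 3.02% of genes and 0 members, with 11 members at an unadjusted p under 0.05, where 11.5% of all genes were, and Kif23 again smallest (adjusted p = 0.0532). Without the KC pair, 0 members were at an unadjusted p under 0.05 in edgeR.

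S-phase genes were next set against G2/M genes within each library. The ratio of the S-phase sum to the G2/M sum was 8.45 (7.29 to 9.83) in WT and 1.17 (1.10 to 1.24) in Zeb2KO microglia, 1.05 and 0.868 in CMs, 2.01 in Zeb2fl/fl WT, 1.40 in Nr1h3fl/fl WT and 0.889 in Zeb2KO KCs, 1.08 and 0.768 in AMs, and 1.68 and 1.53 in SMs. The Zeb2KO library had the lower ratio in 5 of 5 pairs, and in 4 of 5 without Bub1b and Kif23, where SMs stood at 1.89 in WT and 1.999 in Zeb2KO. Without the 3 kept spleen clusters led by genes of other types, the ratios of SMs were 2.67 and 2.30. These clusters include the one with Top2a and Prc1 among its top genes, so their removal also takes out G2/M counts. The ratios of WT and Zeb2KO lay furthest apart in microglia, and the intervals overlapped in SMs. Each molecule counts once at its 3′ end, so these sums needed no division by transcript length.

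Levels summed over a library do not tell whether a few cells hold many members or many cells hold a few. Each cell was therefore thinned to 1500 UMIs, and a cell with UMIs of at least 3 different genes of the 37 S-phase and G2/M genes was called cycling-gene-rich. These made up 0.212% (6 of 2830) of WT and 1.08% (35 of 3243) of Zeb2KO microglia, 3.12% and 4.13% of CMs, 3.93% of Zeb2fl/fl WT, 6.37% of Nr1h3fl/fl WT and 9.53% of Zeb2KO KCs, 6.02% and 5.36% of AMs, and 2.20% and 2.13% of SMs. Zeb2KO KCs again stood above both WT libraries, and the intervals of WT and Zeb2KO overlapped in CMs, AMs and SMs. The log2 ratios of the shares were 2.35 (1.08 to 3.89) in microglia, 0.41 (0.07 to 0.75) in CMs, 1.28 (1.01 to 1.56) in KCs, 0.70 (0.395 to 0.999) between the WT KC libraries, -0.17 (-0.38 to 0.04) in AMs and -0.05 (-0.62 to 0.53) in SMs. Thinning dropped 25.8% of WT and 17.9% of Zeb2KO SMs as too shallow, 0.401% of WT AMs and no cell elsewhere. The kept cells had medians of 2234 (WT SMs) to 9234 UMIs (WT CMs). Without thinning the shares were 2.40% to 35.1%, and the direction turned in CMs (-0.13) and in SMs (0.39, from 5.51% in WT and 7.22% in Zeb2KO). The microglia ratio rests on 6 WT cells and lay between 0.73 (at least 2 members) and 4.61 (1000 UMIs), and the KC ratio was 0.56 without thinning. The AM ratio was -0.58 (-0.73 to -0.44) with at least 2 members and 0.33 (0.04 to 0.61) with at least 5, so its direction depended on the number of members asked for. The CM ratio was between 0.15 and 0.33 under the other alternatives, each with an interval that reached 0, so it carries no call. In SMs the 3 kept clusters led by genes of other types held 26 of the 53 WT and 19 of the 53 Zeb2KO cells. Without them the shares were 1.26% and 1.49%. They include the cluster with Top2a and Prc1 among its top genes, so the shares without them are a description.

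The make-up of the cycling-gene-rich cells is not independent of the list sums and is given as a description. In WT microglia, where 5 of the 6 held exactly 3 members, 6 of 6 held more UMIs of S-phase than of G2/M genes and 4 held no G2/M gene. In Zeb2KO, 22 of 35 held more UMIs of G2/M genes and 27 held 5 or more members. At most 5 members met in a WT microglia and 15 in a Zeb2KO microglia. In KCs the share of these cells with more UMIs of G2/M than of S-phase genes was 28.9% (46 of 159) in Zeb2fl/fl WT, 35.7% in Nr1h3fl/fl WT and 47.6% (177 of 372) in Zeb2KO. In AMs it was 45.7% in WT and 61.2% in Zeb2KO.

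**Figure D3:**
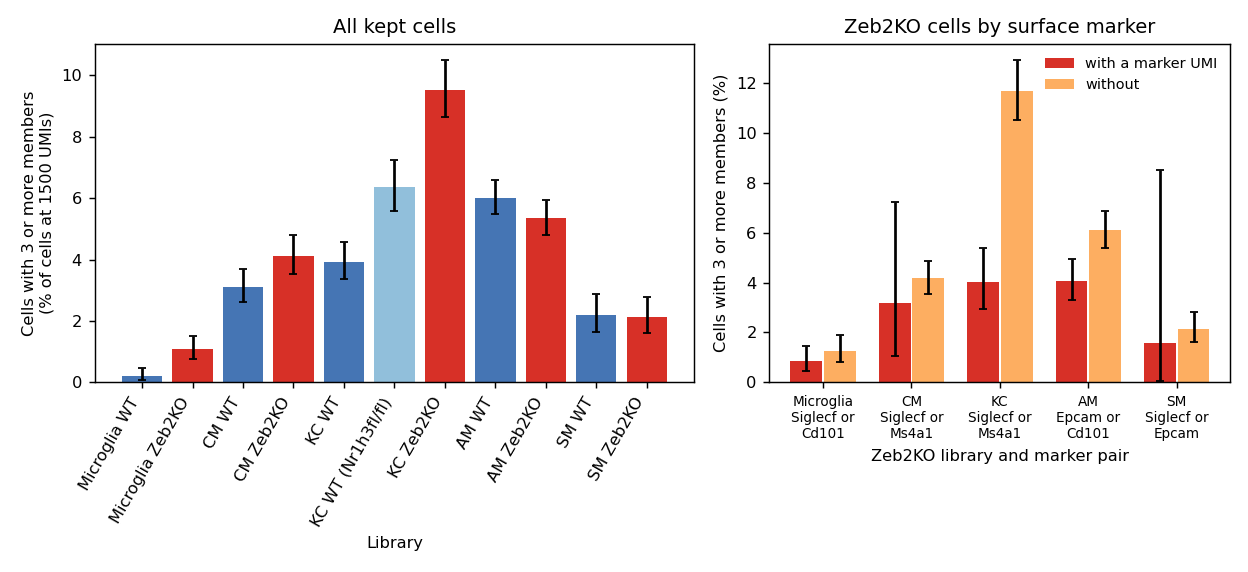
Left, share of cells at 1500 UMIs with 3 or more of the 37 S-phase and G2/M genes in each library. Right, the same share in each Zeb2KO library for cells with and without a UMI of the marker pair named under the bars. Error bars are exact binomial 95% intervals (counting error only). The share is 9.53% in Zeb2KO KCs, and 11.7% in those without Siglecf and Ms4a1 against 4.03% in those with either.

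Cells chosen by S-phase genes alone gave a look at G2/M genes that the choice did not use. Among cells with at least 2 S-phase genes, the share with at least 2 G2/M genes was 0 of 39 in WT microglia (which allows up to 9.03% by the exact interval) and 22.4% (13 of 58) in Zeb2KO microglia. It was 15.3% (11.3 to 20.1) in Zeb2fl/fl WT, 22.997% (18.3 to 28.3) in Nr1h3fl/fl WT and 33.1% (28.3 to 38.1) in Zeb2KO KCs. In AMs it was 18.8% (15.7 to 22.2) in WT and 37.2% (31.8 to 42.9) in Zeb2KO, in CMs 26.3% and 24.5%, and in SMs 12.5% and 10.3%. The microglia, KC and AM shares were thus higher in Zeb2KO with intervals that did not overlap those of the Zeb2fl/fl WT libraries, and the CM and SM shares overlapped. In AMs the shares differed mostly in the number of cells chosen, 575 of 6946 in WT and 309 of 6252 in Zeb2KO. Of these, 108 and 115 held at least 2 G2/M genes. The interval of the Nr1h3fl/fl KCs just met that of the Zeb2KO KCs. Among cells with fewer than 2 S-phase genes the same share was 0.0358% to 4.28% over the 11 libraries.

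Members differed in how far their UMIs lay in such cells. For each gene, the share of its UMIs in cells with at least 3 other members was taken over the 11 thinned libraries pooled. Over all libraries pooled it was highest for Hmmr (89.3%), Bub1 (88.5%), Nusap1 (87.5%) and Ccna2 (83.5%), and was 78.2% for Top2a and 57.8% for Mki67. Rrm2 was the S-phase gene with the highest share (76.2%). The lowest shares were those of Pcna (16.7%), Mcm3 (19.6%), Cdt1 (20.5%) and Mcm4 (22.3%), whose UMIs were spread over cells with few other members. Stmn1 (56.2%) held a larger share there than Hmgb2 (29.1%). Libraries with more of a gene's UMIs weigh more in these shares, which rank the genes over the pool and not within a library. In single libraries with at least 20 UMIs of the gene, the share ran from 47.6% to 94.1% for Ccna2 and from 39.1% to 73.6% for Mki67.

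Bub1b (23.1%), Kif23 (32.4%) and Cenpa (34.8%) had the lowest pooled shares of the G2/M genes. WT AMs gave 511 of the 844 UMIs of Bub1b. There it was highest (44.7 CPM, a UMI in 6.97% of thinned cells), and the share was 13.1%, where these cells held 5.63% of all UMIs. In Zeb2KO KCs (10.5 CPM) it was 66.0% (33 of 50 UMIs). For Kif23 the share was 19.5% in Zeb2KO and 13.6% (6 of 44 UMIs) in WT SMs, where these cells held 1.85% and 2.07% of all UMIs. It was at most 45.6% (WT AMs) in the libraries with at least 20 UMIs of Kif23. The Bub1b UMIs of WT AMs and the Kif23 UMIs of each of these libraries thus lay mostly outside the cells with several members. No gene was annotated over the last 1000 bases of Bub1b or Kif23. Genes on the opposite strand overlapped the last 1000 bases of Mcm7, Tk1, Gins2, Ccna2, Ube2c, Prc1 and Cdc20. Genes on the same strand overlapped those of Cdt1 (Gm20388) and Mcm7 (Mir25 and Mir93) and could have shared reads with them, so the counts cannot be told apart there.

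**Figure D4:**
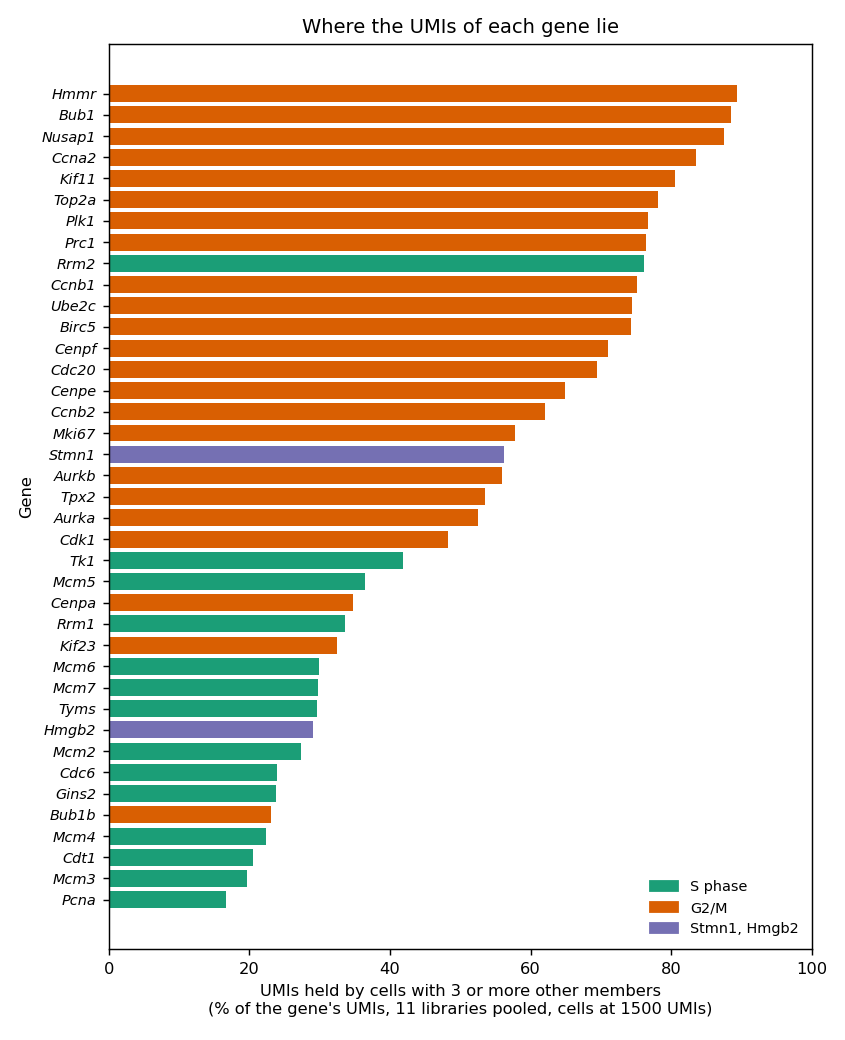
Share of the UMIs of each member that lie in cells with at least 3 other members (11 libraries pooled, cells thinned to 1500 UMIs). Bars are genes, coloured by phase. The share runs from 16.7% for Pcna to 89.3% for Hmmr, and Bub1b (23.1%), Kif23 (32.4%) and Cenpa (34.8%) are the lowest of the G2/M genes. For comparison, the cells chosen for Pcna held 8.84% of all UMIs in Zeb2KO KCs and 4.94% in WT AMs.

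Cells of the Zeb2KO libraries were next divided by a pair of surface markers that were seen far more in them than in WT. The study tied these markers to loss of ZEB2. It found Zeb2 deleted in SiglecF+ KCs and in EpCam+CD101+ AMs, whereas SiglecF- KCs and EpCam- AMs of CRE+ mice had kept a copy. Siglecf or Ms4a1 had a UMI in 27.99% of Zeb2KO and 0.371% of Zeb2fl/fl WT KCs, and Epcam or Cd101 in 36.3% of Zeb2KO and 5.40% of WT AMs. In Zeb2KO KCs, 4.03% (44 of 1092) of cells with a UMI of Siglecf or Ms4a1 were cycling-gene-rich, against 11.7% (328 of 2810) of cells without. All Zeb2fl/fl WT KCs held 3.93% (3.35 to 4.58) and all Nr1h3fl/fl WT KCs 6.37% (5.58 to 7.23). Cells with a marker UMI (2.94 to 5.37) thus overlapped the Zeb2fl/fl WT, and cells without (10.5 to 12.9) lay above both WT libraries. In Zeb2KO AMs the shares were 4.06% (92 of 2267) with Epcam or Cd101 and 6.10% (243 of 3985) without, where all WT AMs held 6.02%. The intervals of cells with and without a marker UMI did not overlap in either tissue. Without thinning they still lay apart in KCs (25.5% and 35.0%), but overlapped in AMs (16.5%, 15.4 to 17.6, and 17.7%, 15.97 to 19.4). At 1500 UMIs they overlapped in microglia (0.863% with Siglecf or Cd101, 1.27% without), CMs (3.16% and 4.17% for Siglecf or Ms4a1) and SMs (1.59% and 2.14% for Siglecf or Epcam). In these 3 tissues the order turned without thinning, with intervals that lay apart in microglia (5.002% with, 4.22 to 5.88, and 2.27% without, 1.14 to 4.03) and SMs (14.1%, 8.69 to 21.1, and 6.90%, 6.01 to 7.89), so no direction is given for them. The sort of CMs and SMs took only SiglecF- cells, which limits a division by Siglecf there. A cell without a marker UMI can still express the marker, and cells are not replicates. By staining of Ki-67 protein, the study reported little proliferation of KCs and AMs that lacked ZEB2. Those that had kept a copy proliferated more than the cells of littermate controls.

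The KCs without Siglecf and Ms4a1 were split further, by a division chosen after the data had been seen. In Zeb2KO KCs, 17.8% (69 of 388, 14.1 to 22.0) of those with a UMI of Ccr2 or Cx3cr1, genes of recently arrived monocyte-derived cells, were cycling-gene-rich. Those with a UMI of Timd4, a gene of long-resident KCs, held 9.67% (53 of 548, 7.33 to 12.5), and those without Timd4 12.2% (275 of 2262). In Zeb2fl/fl WT KCs the share was 3.53% (76 of 2154) with Timd4 and 9.43% (5 of 53) with Ccr2 or Cx3cr1, and in Nr1h3fl/fl WT KCs 5.72% and 2.38% (1 of 42). At 9.67% against 3.53% and 5.72%, the Timd4 cells of the Zeb2KO library had an interval above those of both WT libraries. The WT groups with Ccr2 or Cx3cr1 were too small to place.

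The markers of tissue macs were then compared between cycling-gene-rich and other cells. At least 2 of 6 were seen in 100% of the rich cells of both microglia libraries, and in KCs in 94.9% to 100% of the rich and 94.3% to 99.7% of the other cells. In AMs they were seen in 98.3% (WT) and 97.0% (Zeb2KO) of the rich and 99.4% and 95.8% of the other cells, and in CMs in 85.9% and 80.5% against 82.7% and 77.0%. SMs differed, with 94.3% (WT) and 88.7% (Zeb2KO) of the rich against 99.5% of the other cells of either library. The summed markers of splenic red pulp macs stood at 15922 CPM in the rich and 24748 CPM in the other WT SMs, and at 11747 and 21984 CPM in Zeb2KO. Both genotypes had lower summed markers of their own tissue in the rich than in the other cells of AMs (8675 and 10510 CPM in WT, 17202 and 24667 CPM in Zeb2KO). In KCs they stood at 13888 and 17763 CPM in Zeb2fl/fl WT, 11656 and 14100 CPM in Nr1h3fl/fl WT, and 8116 and 8070 CPM in Zeb2KO. WT microglia (30477 and 25372 CPM) and WT CMs (7540 and 6823 CPM) went the other way from Zeb2KO microglia (11912 and 16697 CPM) and Zeb2KO CMs (6132 and 6403 CPM).

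Markers of other cell types were also seen in some of the rich cells. In SMs, 15.1% of them held at least 2 B cell markers in WT and in Zeb2KO, against 4.75% and 2.67% of the other SMs. In KCs, 0 of 159, 0 of 221 and 0 of 372 held 2 B cell markers. In Zeb2KO KCs at least 2 monocyte markers were seen in 5.38% of the rich and 2.15% of the other cells, and at least 2 colonic mac markers in 8.33% and 3.48%. In Zeb2fl/fl WT KCs the monocyte shares were 1.89% and 0.72%, and the colonic shares 2.52% and 0.57%. In Nr1h3fl/fl WT KCs they were 0.45% and 0.65%, and 0.90% and 0.71%. The colonic list holds Cx3cr1 and the monocyte list Ccr2, so these KC shares are not independent of the division by those genes above. The colonic markers are also not particular to the colon, as 90.4% of the other WT microglia held at least 2 of them. The summed monocyte markers of Zeb2KO microglia stood at 229 CPM in the rich and 35.8 CPM in the other cells, with 0 of 35 rich cells holding at least 2 of them, and at 0 CPM in the 6 rich cells of WT. The summed plasma cell markers of Zeb2KO SMs stood at 987 CPM in the rich and 81.1 CPM in the other cells, with at least 2 markers in 1 of 53 rich cells. The part of these cells and markers in the SM, KC and microglia values was not tested.

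Other genes of the cell cycle gave a wider view. From a list of 47 further mitotic genes, 19 of 36 at or above 5 CPM were higher in Zeb2KO KCs and 0 lower, against the 4.06% given above. The 3 with the largest ratio were Ccnf, a cyclin F-box protein (1.11 CPM in Zeb2fl/fl WT and 6.33 CPM in Zeb2KO), Cdca3 (6.25 and 22.5 CPM) and Cdca8, borealin of the passenger complex (6.87 and 23.3 CPM). The sum of the 47 genes differed less than that of the 23 G2/M members. Its log2 ratio was 0.64 (0.61 to 0.68) in KCs and 0.29 (0.22 to 0.35) in microglia, against 1.67 and 2.90. Of 35 further replication genes, 7 of 28 were higher in KCs, led by Clspn (1.64 and 6.72 CPM), Rad51ap1 (2.84 and 8.64 CPM) and Ung, a uracil glycosylase (4.03 and 9.93 CPM). Of the regulators of cell-cycle transcription, 1 of 6 was higher in KCs, Ccne1, cyclin E1 (1.60 and 5.24 CPM). Most of the genes counted as higher passed the minimum only through the Zeb2KO library, in which they were high. Of those already at 5 CPM or more in the Zeb2fl/fl WT library, 4 of 13 mitotic, 1 of 20 replication and 0 of 5 regulator genes were higher, so the counts are descriptions.

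In microglia these lists differed in both directions. Racgap1, of the central spindle, was higher (1.62 and 7.21 CPM), as were the kinetochore gene Spc24 (1.78 and 5.55 CPM), Cdca8 (1.54 and 5.38 CPM), Dut, a dUTPase (5.27 and 13.1 CPM), and the transcription factor E2f1 (3.32 and 7.98 CPM). Espl1 (separase; 11.4 and 1.12 CPM) and the condensin subunit Ncaph (13.4 and 3.31 CPM) were lower, unlike any G2/M member. Of the mitotic list, 3 of 14 were higher and 2 lower, against 5.02% and 4.86% of all genes, and the 3 higher ones were under 5 CPM in WT. In AMs 1 of 22 was higher, Cdc25b, a CDK-activating phosphatase (22.3 and 47.3 CPM), and 1 lower, the centromeric chaperone Hjurp (38.3 and 16.2 CPM), and Gins1 was the 1 replication gene of 23 that was lower (18.2 and 7.78 CPM). These AM counts lay at or below the 5.03% of all genes that were higher and the 7.19% that were lower. In SMs Ung was the 1 gene of the 3 lists to meet the rule (5.29 and 13.4 CPM, 1 of 18 replication genes, against 3.15% of all genes), with Cdc25a (8.77 and 14.8 CPM) and Racgap1 (5.77 and 8.92 CPM) next in size. In CMs none met it, and the genes with the largest ratios were Kif2c (3.29 and 5.87 CPM), Cks1b (19.1 and 28.4 CPM) and Hjurp (36.03 and 25.4 CPM). No gene of these lists was called across the 5 pairs in edgeR, where 8 of 47 mitotic, 3 of 34 replication and 1 of 13 regulator genes were at an unadjusted p under 0.05 against the 11.9% of all genes, nor in DESeq2, where 12, 2 and 1 were against 11.5%. The shares of the replication and regulator genes thus lay below the share of all genes in both.

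Over the 11 libraries, genes outside the member list whose log2(CPM + 1) was among the most like that of Mki67 were the RNA gene Lockd (Pearson's r = 0.96), 2810417H13Rik (0.96), Pkmyt1, the membrane-bound inhibitory kinase of CDK1 (0.94), and the ribosomal protein gene Rps20 (0.93). Among members, Cenpa and Top2a were most like it (0.97 each), and Tyms (0.05) and Mcm3 (0.13) least. The libraries differ in tissue, instrument and depth together, so these values are descriptions.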

How the data were processed

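Sorted macs were loaded on a 10x Genomics GemCode instrument (3′ kit), and per the labels and the study's methods the authors deposited raw UMI counts per gene and barcode from CellRanger 2.0.0 (KCs, AMs; NextSeq500) or 2.0.2 (microglia, SMs, CMs; HiSeq) on mm10, so tissue and instrument cannot be told apart, whereas both genotypes of a tissue shared them. The gates were Clec4F+CD64+F4/80+CD45+ (KCs), CD11c+SiglecF+F4/80+CD64+CD45+ (AMs), CD45int F4/80+CD64+ (microglia) and CD45+Ly6C-Ly6G-SiglecF-CD64+F4/80+ (CMs, SMs). The study left actively proliferating cells out of its own analysis, and the deposited counts still hold them.

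Barcodes beyond 3 median absolute deviations were removed (4.66% to 9.22% per library). Each tissue was clustered (scanpy 1.11.5, leidenalg 0.10.2, 2000 variable genes, 30 principal components, 15 neighbours, resolution 0.8), and clusters of other cell types by marker genes were left out where under 25% of every library. Scrublet scores called at most 0.0655% of cells doublets, too few to rely on, so removal of the top 5% was tried as an alternative. Counts were summed per library and divided by the total of kept cells (CPM). Shares of cells were taken after thinning to 1500 UMIs. Ratios used CPM plus 1, with a threshold of 1 on the log2 scale and a minimum of 5 CPM in the higher library. Ratios of sums used no added CPM. Intervals (95%) were exact Poisson, Clopper-Pearson or exact conditional. The 5 pairs were tested with edgeR 4.0.16 (R 4.3.3) with the tissue as a block, and with DESeq2 1.42.0. Only the edgeR fit was checked on simulated counts. Within a tissue, no test was possible with 1 library per group, and whether libraries pool mice was not given in the sources used here.

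The members and the further gene lists were chosen with earlier results of these data known. Named genes were those past the fold rule in a tissue (the 8 with the largest ratio where more), 7 genes in every library (Mki67, Top2a, Pcna, Mcm5, Rrm2, Stmn1, Hmgb2), and the 3 genes of the other lists with the largest ratio. Further genes of those lists were named after their values were seen. Of the genes outside the members, the 5 most like Mki67 over the 11 libraries were taken by Pearson correlation, and 1 of them is not reported here.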

Additional observations from a re-analysis of the deposited data

Results flagged for a closer look

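Ratios of Zeb2KO over WT differed in sign between tissues, by 1 library per group and with counting intervals that did not overlap 0, and these differences between tissues were not tested. The S-phase sum had a log2 ratio of 0.49 in KCs and -0.60 in AMs (a difference of 1.10), and -0.15 in SMs (0.64 from KCs). The SM value was -0.04, with an interval that held 0, once the kept clusters led by genes of other types were left out. Those clusters include the one with Top2a and Prc1 among its top genes. The G2/M sum stood at 2.90 in microglia, 0.30 in CMs and 1.67 in KCs against -0.11 in AMs, differences of 3.01, 0.41 and 1.78, but the AM value turned to 0.11 with TMM factors.

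Some cells outside the comparisons also held 3 or more members. They were 4 of 30 plasma cells left out of the WT colon library (13.3%, 3.76 to 30.7) with 5 of 44 in Zeb2KO (11.4%), and 36 of 135 erythroid cells left out of the WT spleen library (26.7%, 19.4 to 35.0) with 0 of 76 in Zeb2KO (0% to 4.74%). The erythroid marker sum in the kept SMs was 33.9 CPM in WT and 2.33 CPM in Zeb2KO, and its part in the SM values was not tested.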

How the results depend on the processing

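Of 122 alternative values of sums, shares and counts, 90 stayed near the main value. A log2 ratio changed sign in 12 of them, of which 2 had a main interval that excluded 0. The G2/M log2 ratio of AMs turned to 0.11 with TMM factors and was -0.20 with all deposited barcodes and -0.013 without Bub1b and Kif23. The share of cells with 3 or more members in CMs turned to -0.13 without thinning. The other 10 sign changes were 0.01 (TMM factors) and 0.18 (without the kept clusters led by genes of other types) for the G2/M sum of SMs, -0.01 for the S-phase sum of microglia without Pcna, -0.0055 (TMM factors) and -0.0050 (without Pcna) for that of CMs, 0.33 (at least 5 members) for the share in AMs, and 0.02 (at least 5), 0.04 (1000 UMIs), 0.39 (no thinning) and 0.24 (without those clusters) for the share in SMs. The G2/M ratio of KCs was 1.74 without Cenpa and 1.08 against the Nr1h3fl/fl library, and that of SMs was -0.63 with other clusters kept, -0.84 with all barcodes and -0.23 without Bub1b and Kif23. The S-phase ratio was 0.60 in KCs and -0.71 in AMs without Pcna, 0.42 in KCs against the Nr1h3fl/fl library, -0.38 in AMs with TMM factors, and -0.36 (other clusters kept) and -0.45 (all barcodes) in SMs. Without the kept clusters led by genes of other types, the G2/M ratio was 0.25 in CMs and the S-phase ratio -0.036 in SMs. In the spleen these include the cluster with Top2a and Prc1 among its top genes. The ratio of the share in microglia, which rests on 6 WT cells, was 0.73 with at least 2 members, 4.56 with at least 5, 4.61 at 1000 UMIs and 0.94 without thinning. In KCs it was 0.70, 1.62 and 0.56 (at least 2, at least 5, no thinning), in AMs -0.58 with at least 2, and in SMs -0.85 with all barcodes. With a minimum of 20 CPM the members meeting the fold rule numbered 0 in microglia, 11 in KCs and 1 in SMs, and with other clusters kept 5 in SMs. Causes were not tested. The removal of Bub1b and Kif23, that of the kept clusters and the Nr1h3fl/fl control were chosen after seeing the data. The edgeR test called 0 members under each alternative, leave-one-out included (0 to 0), and over all genes it called 0 to 3 (3 without a filter on low counts, 1 each without the AM or SM pair), against 367 in DESeq2. Of 168 values for single genes, 137 kept their call and 31 lost it, 27 of them at 20 CPM. The pairing by tissue is the block of the main test, and with no tissue block 0 genes were called. No paired analysis was possible within a tissue because each tissue and genotype had 1 library.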
